A study of Mus musculus with 9 samples.

Results

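Polycomb repressive complex genes were followed across wildtype cerebellum, Sufu knockout (KO) cerebellum and Ptch1 KO medulloblastoma of mice at postnatal day 13. The 9 genes Ezh1, Ezh2, Eed, Suz12, Jarid2, Bmi1, Cbx2, Cbx7 and Cbx8 were chosen by symbol, and all 9 had a probe set annotated to that gene alone, out of 19938 genes with such a probe set. Eed alone had a second probe set, and the brighter one by its mean over the 9 arrays stood for the gene. RNA came from 3 groups of 3 samples, with 1 Mouse Gene 1.0 ST array of Affymetrix for each sample, and 3 arrays per group limit the precision of every value. The groups were wildtype cerebellum, cerebellum labelled SufuKO, a knockout of the Hedgehog pathway inhibitor Sufu, and cerebellar tumour labelled Ptch1KO, a knockout of the Hedgehog receptor Ptch1. The labels name no strain, no Cre driver or deleted exons, and no agent, and do not tell whether each sample was a different animal. The p-values therefore rest on the spread among these 9 arrays, part of which may be technical. All Ptch1KO samples were tumour and all others cerebellum, so comparisons with the tumours cannot tell genotype from tissue.

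Polycomb proteins keep genes silent by modifying histones. Polycomb repressive complex 2 (PRC2) methylates lysine 27 of histone H3 through a catalytic subunit, Ezh2 or its paralog Ezh1, held together with Eed and Suz12, and Jarid2 helps to bring it to its sites. Ezh2 is the form of dividing cells and Ezh1 the form that prevails in cells that have left the cycle. Canonical Polycomb repressive complex 1 (PRC1) contains 1 CBX protein, which reads the methyl mark through a chromodomain, and a RING finger partner such as Bmi1. In the postnatal cerebellum Bmi1 is known for its part in the expansion of granule neuron progenitors, the cells from which Hedgehog-driven medulloblastoma arises.

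Letters resembling factor binding sites were searched in promoter windows of RefSeq (GRCm38.p6), which run from 250 bases before to 50 bases after a transcription start. The search used both strands and covered the E2F letters TTTCCCGC, TTTCGCGC, TTTGCCGC and TTTGGCGC, the E-box CACGTG bound by Myc family factors, and the Gli letters GACCACCCA. Of the 9 genes, 8 had a window, Jarid2 had an additional one, and Cbx2 is not in the table. The stretches of 30 bases around each match are shown because these factor families are known regulators of cell cycle and Hedgehog genes, with the matching letters in capitals and each stretch read 5′ to 3′ on the gene's strand.
Ezh2, E2F letters, chr6:47595009-47595038, minus strand: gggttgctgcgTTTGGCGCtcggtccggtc
Suz12, E2F letters, chr11:79992876-79992905, plus strand: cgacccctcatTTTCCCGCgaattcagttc
Bmi1, E-box, chr2:18676791-18676820, plus strand: gaatgaggggagCACGTGacccggcggggg
Cbx8, E-box, chr11:119040994-119041023, minus strand: cgtcgttagcaaCACGTGgggcgggaggaa
The match of Ezh2 began at base 4 of the transcript, that of Suz12 219 bases before its start, that of Bmi1 215 bases before and that of Cbx8 98 bases before. E2F letters were present in 2.26% of all 32851 windows, the E-box in 7.15% and the Gli letters in 0.253%, and no window of the 9 genes held the Gli letters. The E2F and E-box letters do not overlap each other in these windows. A match shows only that the letters are there.

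The catalytic pair of PRC2 moved apart. Ezh2, the methyltransferase of dividing cells, read 9.15, 8.92 and 9.08 on the wildtype arrays, 9.99, 9.96 and 10.02 on the Sufu KO arrays and 10.70, 10.62 and 10.38 on the tumour arrays (log2 levels, replicates 1 to 3). Every Sufu KO array lay above every wildtype array, and every tumour array above every Sufu KO array. Ezh2 rose 1.92-fold in Sufu KO against wildtype (log2 difference 0.94 ± 0.09, SE, with 3 arrays per group, limma adjusted p = 2.12e-05). In the tumours it rose 2.86-fold over wildtype (1.51 ± 0.09, limma adjusted p = 7.39e-08) and 1.49-fold over Sufu KO (0.57 ± 0.09, limma adjusted p = 0.000452). It changed more than any other of the 9 genes in each of these comparisons.

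Ezh1, the methyltransferase of cells outside the cycle, went the other way in small steps. It read 9.07, 9.04 and 9.16 on wildtype arrays, 8.93, 8.94 and 8.94 on Sufu KO arrays and 8.87, 8.88 and 8.79 on tumour arrays (log2 levels). The 3 groups did not overlap, in falling order from wildtype to tumour. Ezh1 fell 1.18-fold in the tumours against wildtype (log2 difference -0.24 ± 0.06, SE, limma adjusted p = 0.00674). Its difference in Sufu KO was -0.16 ± 0.06 (limma adjusted p = 0.0950) and between tumour and Sufu KO -0.09 ± 0.06 (limma adjusted p = 0.372), so neither step passed on its own. The value in Sufu KO passed after quantile normalization of the arrays (-0.18, limma adjusted p = 0.0443).

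Eed and Suz12, the 2 subunits without which PRC2 has no activity, had their highest group means in the tumours. Suz12, which links the catalytic subunit to the rest of the complex, read 9.20, 8.84 and 9.06 on wildtype arrays, 9.13, 9.31 and 9.49 on Sufu KO arrays and 9.71, 9.70 and 9.53 on tumour arrays (log2 levels). Wildtype and Sufu KO overlapped and the tumours lay above both. Suz12 rose 1.53-fold in the tumours against wildtype (0.61 ± 0.11, limma adjusted p = 0.000459) and 1.26-fold against Sufu KO (0.34 ± 0.11, limma adjusted p = 0.0337). The second of these calls ended when Sufu KO replicate 1 or 2 was left out (limma adjusted p = 0.126 and 0.0865) and when tumour replicate 1 or 2 was (adjusted p = 0.111 and 0.109). In Sufu KO its difference from wildtype was 0.28 ± 0.11 (limma adjusted p = 0.0843). That value passed in limma without wildtype replicate 1 (0.36, adjusted p = 0.0470), with Sufu KO replicate 1 left out (0.36, adjusted p = 0.0339) and with high Xist as a covariate (0.39, adjusted p = 0.0369).

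Eed, which binds the methylated histone tail, read 7.56, 7.76 and 7.68 on wildtype arrays, 7.62, 7.71 and 8.16 on Sufu KO arrays and 8.07, 7.95 and 8.01 on tumour arrays (log2 levels). Sufu KO replicate 3 stood above all 3 tumours, while the other two Sufu KO arrays lay among the wildtype values. Eed rose 1.27-fold in the tumours (0.35 ± 0.12, SE, limma adjusted p = 0.0316). This call was weak: it ended on leaving out wildtype replicate 1 or 3 or tumour replicate 1, 2 or 3, where limma's adjusted p ran from 0.05005 to 0.114, and with the mean of both Eed probe sets (0.13, adjusted p = 0.264). Its log2 difference was 0.17 ± 0.12 in Sufu KO (limma adjusted p = 0.376) and 0.18 ± 0.12 between tumour and Sufu KO (limma adjusted p = 0.319). Without Sufu KO replicate 3 these became -0.0020 (limma adjusted p = 0.991) and 0.35 (limma adjusted p = 0.00695). A second, dimmer probe set of Eed lay between 4.71 and 5.05 on all 9 arrays, with a difference of -0.09 ± 0.08 in the tumours against wildtype (limma adjusted p = 0.445).

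Jarid2, a DNA-binding partner of PRC2, differed between the tumours and Sufu KO cerebellum. Its log2 levels were 10.53, 10.44 and 10.37 on wildtype arrays, 10.43, 10.51 and 10.47 on Sufu KO arrays and 10.18, 10.10 and 10.24 on tumour arrays. Wildtype and Sufu KO overlapped, and the tumours lay below both. Jarid2 fell 1.21-fold in the tumours against wildtype (-0.28 ± 0.07, SE, limma adjusted p = 0.00500) and 1.23-fold against Sufu KO (-0.30 ± 0.07, limma adjusted p = 0.00551). Between Sufu KO and wildtype the difference was 0.02 ± 0.07 (95% confidence interval -0.13 to 0.17, limma adjusted p = 0.867).

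**Figure D1:**
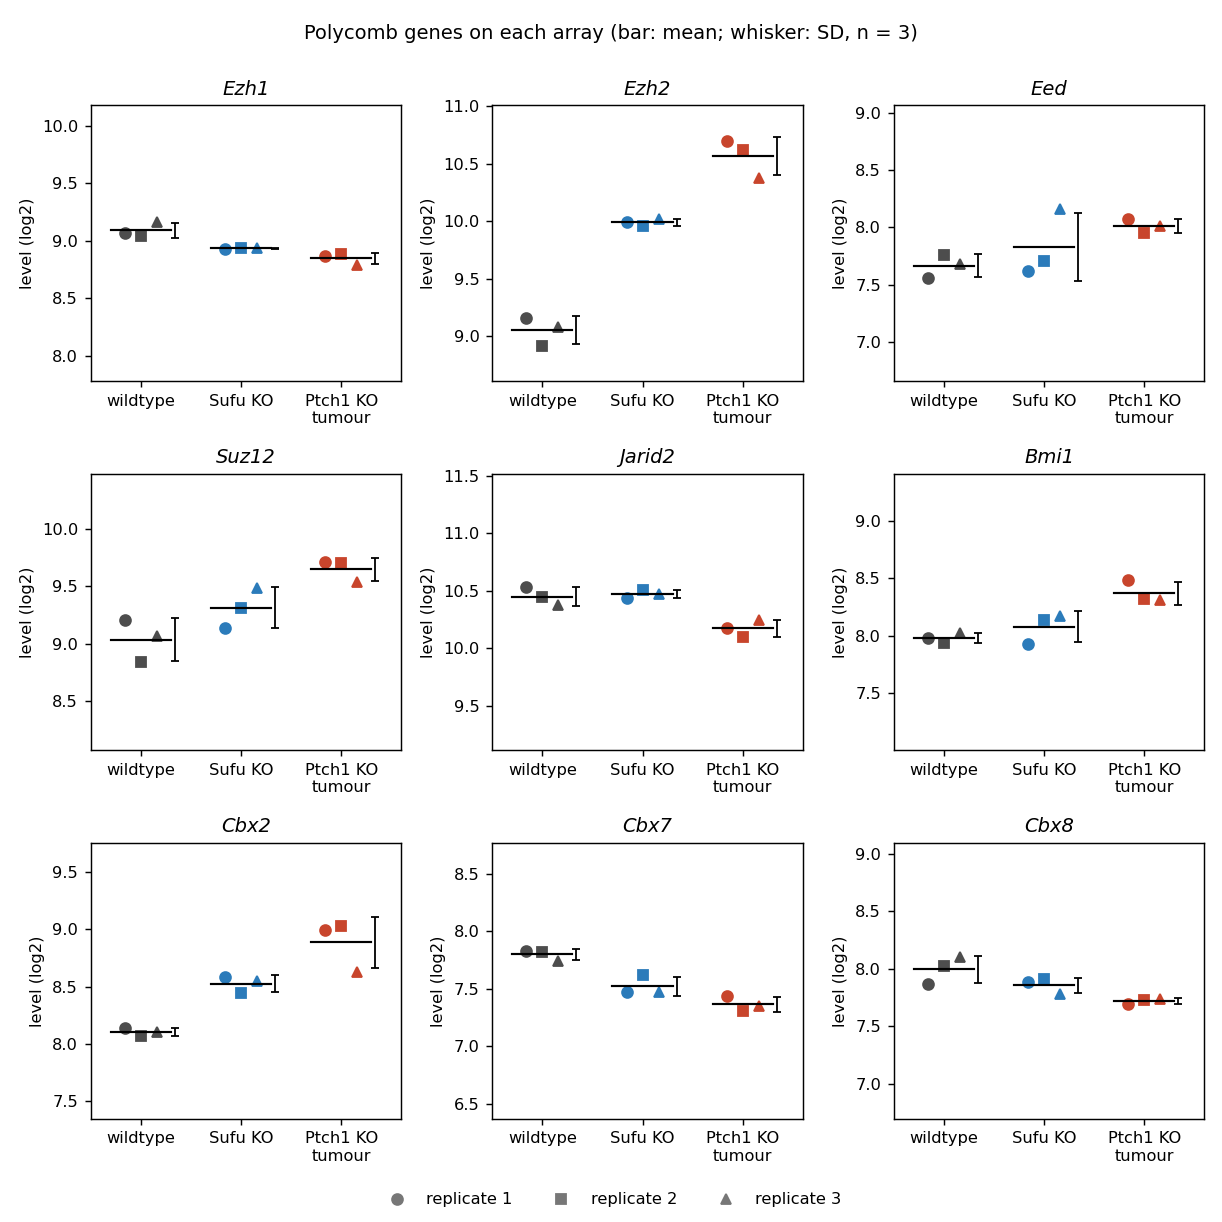
Log2 levels of the 9 Polycomb genes on each array (vertical axis, every panel spanning an equal range) by group (horizontal axis), with symbols for replicates 1 to 3, a bar for the mean and a whisker for the SD of 3 arrays. Ezh2 climbs from a mean of 9.05 through 9.99 to 10.56, while Ezh1 drifts down from 9.09 to 8.85, and Sufu KO replicate 3 stands apart for Eed at 8.16.

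Of the PRC1 genes, Bmi1 encodes the RING finger partner that stimulates ubiquitination of histone H2A. It read 7.98, 7.94 and 8.02 on wildtype arrays, 7.93, 8.14 and 8.18 on Sufu KO arrays and 8.48, 8.32 and 8.31 on tumour arrays (log2 levels). The tumours lay above all other arrays, and Sufu KO spanned the wildtype values. Bmi1 rose 1.31-fold in the tumours against wildtype (0.39 ± 0.08, SE, limma adjusted p = 0.00160) and 1.22-fold against Sufu KO (0.29 ± 0.08, limma adjusted p = 0.0168). The call against Sufu KO ended without Sufu KO replicate 1 (limma adjusted p = 0.0639) or tumour replicate 1 (0.0806). In Sufu KO the difference was 0.10 ± 0.08 (limma adjusted p = 0.447).

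The CBX readers split. Cbx2, whose protein also compacts nucleosomes, read 8.14, 8.07 and 8.11 on wildtype arrays, 8.58, 8.44 and 8.55 on Sufu KO arrays and 8.997, 9.03 and 8.63 on tumour arrays (log2 levels). Its 3 groups were stacked without overlap, in rising order from wildtype to tumour. Cbx2 rose 1.34-fold in Sufu KO (0.42 ± 0.10, SE, limma adjusted p = 0.00730), 1.72-fold in the tumours (0.78 ± 0.10, limma adjusted p = 2.73e-05) and 1.28-fold from Sufu KO to tumour (0.36 ± 0.10, limma adjusted p = 0.0141). The last of these calls ended without Sufu KO replicate 2 (limma adjusted p = 0.0644), tumour replicate 1 (0.0661) or tumour replicate 2 (0.0718).

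Cbx7, a reader prevalent in stem cells and in many mature tissues, read 7.83, 7.82 and 7.74 on wildtype arrays, 7.47, 7.62 and 7.48 on Sufu KO arrays and 7.44, 7.31 and 7.35 on tumour arrays (log2 levels). Its groups were stacked in the falling order. Cbx7 fell 1.21-fold in Sufu KO (-0.28 ± 0.07, SE, limma adjusted p = 0.0109) and 1.35-fold in the tumours (-0.43 ± 0.07, limma adjusted p = 0.000203), and between the mutants its difference was -0.16 ± 0.07 (limma adjusted p = 0.119).

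Cbx8, another reader of the canonical complex, read 7.87, 8.02 and 8.10 on wildtype arrays, 7.88, 7.91 and 7.78 on Sufu KO arrays and 7.69, 7.73 and 7.74 on tumour arrays (log2 levels). Sufu KO overlapped wildtype, and the tumours lay below both groups. Cbx8 fell 1.21-fold in the tumours (-0.28 ± 0.07, SE, limma adjusted p = 0.00745). Its difference was -0.14 ± 0.07 in Sufu KO (limma adjusted p = 0.202) and -0.14 ± 0.07 between the mutants (limma adjusted p = 0.201). Cbx2 and Cbx8 are neighbouring genes on chromosome 11 in RefSeq, and in the tumours the first rose while the second fell.

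Counted together, 2 of the 9 genes rose in Sufu KO (Ezh2 and Cbx2), 1 fell (Cbx7) and 6 did not pass. Among all 16323 genes tested, 13% rose and 12.4% fell in that comparison. In the tumours against wildtype all 9 passed, 5 higher (Ezh2, Eed, Suz12, Bmi1 and Cbx2) and 4 lower (Ezh1, Jarid2, Cbx7 and Cbx8), where 22.1% of all genes rose and 24.7% fell. Between tumour and Sufu KO 4 were higher (Ezh2, Suz12, Bmi1 and Cbx2), 1 was lower (Jarid2) and 4 did not pass, beside 12.2% and 17.5% of all genes. Groups did not overlap for 2 higher and 2 lower genes in Sufu KO (21.3% and 19.6% of all genes), 5 and 4 in the tumours against wildtype (26.4% and 30.2%) and 4 and 4 between tumour and Sufu KO (16.1% and 23.6%). The count of genes called higher in that last comparison was 2 without Sufu KO replicate 1, Sufu KO replicate 2 or tumour replicate 2, and 1 without tumour replicate 1. The median log2 difference of the 9 genes was 0.10, 0.35 and 0.18 in these comparisons, and that of all genes -0.0060, -0.013 and -0.0079. The first and second comparisons share the wildtype arrays, and the third shares arrays with each, so they are not independent of each other.

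Ezh2 and Cbx2 had every wildtype array below every Sufu KO array and every Sufu KO array below every tumour array, an order that 8.6% of all tested genes showed. Ezh1 and Cbx7 had the reverse order, shown by 11.1% of all genes. The remaining 5 genes had at least 1 overlap.

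**Figure D2:**
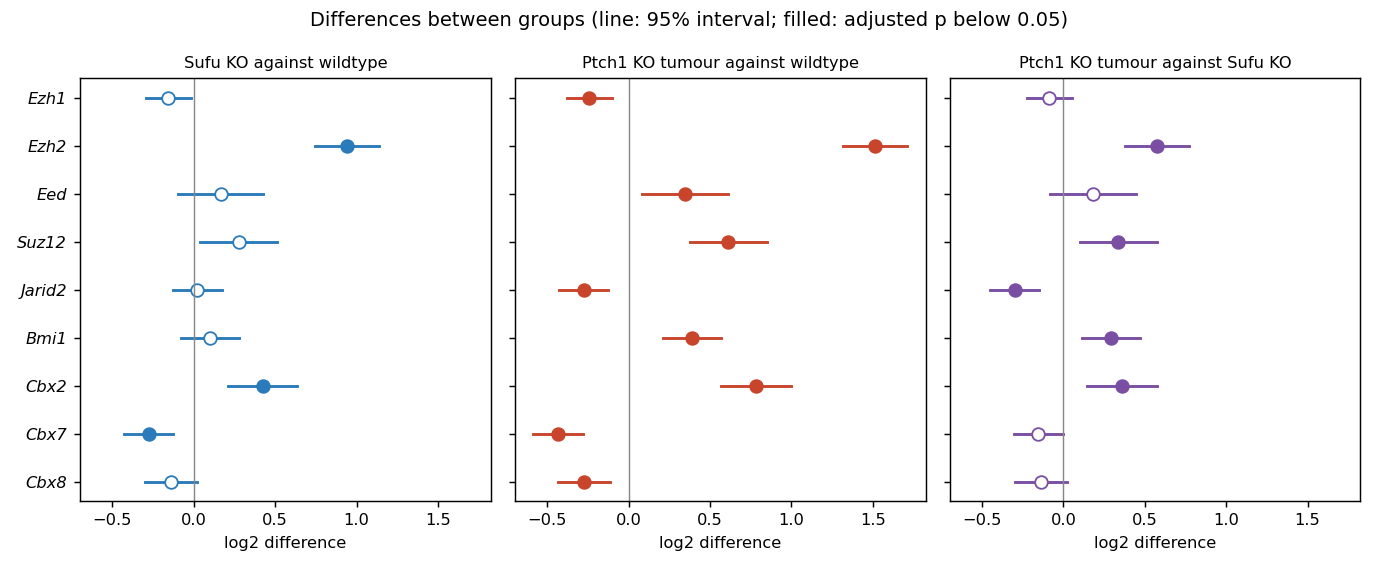
Log2 differences (horizontal axis) of the 9 genes in the 3 comparisons, with the 95% confidence interval of limma's fit as a line, filled where the adjusted p was below 0.05. All 9 points are filled for tumour against wildtype, and only those of Ezh2, Cbx2 and Cbx7 for Sufu KO against wildtype.

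Whether paralogs changed unequally was tested on the difference of their log2 levels within each array, where a shift common to both genes cancels. The sign of such a difference does not say which gene is more abundant, since each probe set has its own brightness. For Ezh2 minus Ezh1 the mean was -0.04 ± 0.11 on wildtype arrays, 1.06 ± 0.03 on Sufu KO arrays and 1.72 ± 0.12 on tumour arrays (log2, SD, n = 3). The lowest Sufu KO array stood at 1.02 and the highest wildtype array at 0.08, and the lowest tumour stood at 1.59 against the highest Sufu KO value of 1.08. An exact permutation test of the F statistic over the 3 groups gave p = 0.00357, the smallest that its 1680 arrangements allow, and adjusted p = 0.00536 over the 3 pairs tested. With arrangements only within replicate numbers, the exact adjusted p was 0.0417, from the smallest p that those fewer arrangements allow. Ezh2 rose and Ezh1 fell across the groups without overlap, so the separation of their difference follows from the values of each gene. The test is therefore no support independent of those values.

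Cbx2 minus Cbx7 moved likewise, from 0.31 ± 0.06 in wildtype through 1.01 ± 0.16 in Sufu KO to 1.52 ± 0.22 in the tumours (log2, SD, n = 3, exact permutation p = 0.00357, adjusted p = 0.00536). Wildtype arrays reached at most 0.36, Sufu KO arrays ran from 0.83 to 1.12 and tumours from 1.28 to 1.72. Cbx2 and Cbx7 were each stacked without overlap in opposite orders, so this separation too follows from the values of each gene. For Cbx8 minus Cbx7 the means were 0.20 ± 0.16, 0.34 ± 0.07 and 0.36 ± 0.09 (log2, SD, n = 3), and the test did not pass (exact permutation p = 0.243, adjusted p = 0.243). Without wildtype replicate 3 the exact adjusted p of that pair was 0.0536. These 2 genes therefore showed no detected difference in their change at this number of arrays, which does not show that they changed alike.

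**Figure D3:**
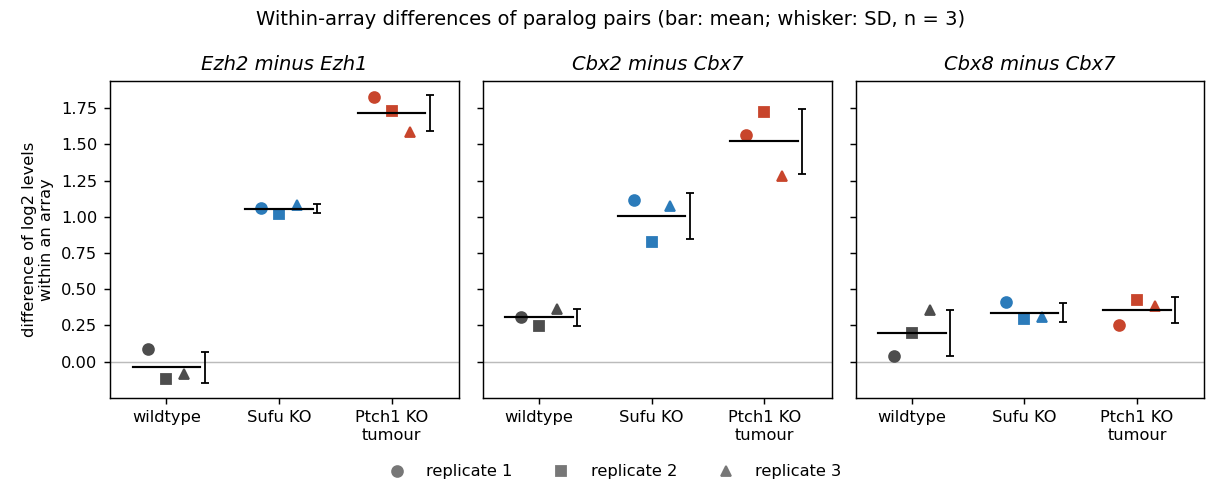
Differences of log2 levels within each array (vertical axis) for 3 paralog pairs by group (horizontal axis), with symbols for replicates 1 to 3, a bar for the mean and a whisker for the SD of 3 arrays. Ezh2 minus Ezh1 and Cbx2 minus Cbx7 separate all 3 groups, and Cbx8 minus Cbx7 overlaps between them.

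Other Polycomb genes were read from a list of 38, of which 36 were tested. In Sufu KO 11 rose, 0 fell in limma (2 lower at an unadjusted p under 0.05) and 25 did not pass, where 13% of all tested genes rose and 12.4% fell. In the tumours against wildtype 15 rose, 7 fell and 14 did not pass, beside 22.1% and 24.7% of all genes. Between tumour and Sufu KO 6 were higher and 6 lower, beside 12.2% and 17.5%. The counts of lower genes in the tumours, and both counts between the mutants, lie near those shares and are no result about these genes. The count that fell in Sufu KO was 1 without wildtype replicate 3, Sufu KO replicate 1 or 3, or tumour replicate 1, with a filter at the array median and with the Xist covariate. The 6 higher between tumour and Sufu KO became 2 without Sufu KO replicate 2 or tumour replicate 2, and 3 without tumour replicate 1.

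Of 8 further PRC2 subunits and partners, 2 rose in Sufu KO, and 4 rose and 1 fell in the tumours against wildtype. Those counts stand beside 13%, 22.1% and 24.7% of all tested genes, in that order. Rbbp4, a histone chaperone in PRC2 and in other complexes, rose 1.31-fold in Sufu KO (limma adjusted p = 0.00339) and, in the tumours, 1.57-fold (adjusted p = 2.00e-05). Its paralog Rbbp7 rose 1.40-fold in the tumours (0.49 ± 0.07, limma adjusted p = 7.79e-05), and its difference in Sufu KO was 0.10 ± 0.07 (adjusted p = 0.377). Mtf2, a Polycomb-like protein that guides PRC2 to CpG islands, rose 1.24-fold in Sufu KO (limma adjusted p = 0.0176) and, in the tumours, 1.44-fold (adjusted p = 0.000241). Its call in Sufu KO ended without wildtype replicate 2 or 3 or Sufu KO replicate 3, with limma adjusted p values of 0.0599, 0.0529 and 0.0613.

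Among 7 RING and PCGF genes, the enzymatic core of PRC1, 2 rose in Sufu KO, and 4 rose and 1 fell in the tumours. The shares of all tested genes were 13%, 22.1% and 24.7%, in that order. Rnf2, a catalytic RING subunit, rose 1.45-fold in the tumours (0.54 ± 0.12, SE, limma adjusted p = 0.00269). Pcgf5, a Bmi1 relative found in variant PRC1, read 6.03, 5.995 and 5.86 on wildtype arrays, 6.07, 6.16 and 6.09 on Sufu KO arrays and 6.77, 6.85 and 6.46 on tumour arrays (log2 levels). The tumours stood apart from both other groups, at 1.66-fold over wildtype (limma adjusted p = 4.02e-05) and 1.502-fold over Sufu KO (adjusted p = 0.000569). Its wildtype and Sufu KO means of 5.96 and 6.10 lay at a brightness that cannot be told from background here, so these folds may be understated. Pcgf3, its close relative, rose 1.35-fold in Sufu KO (limma adjusted p = 0.00184) and, in the tumours, 1.29-fold (adjusted p = 0.00201).

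Of 6 tested PHC and SCM genes, 3 rose in Sufu KO, and 3 rose and 2 fell in the tumours. Across all tested genes these shares were 13%, 22.1% and 24.7%, in that order. Scml2, an X-linked relative of the fly gene Sex comb on midleg, rose 1.28-fold in Sufu KO (limma adjusted p = 0.00828) and, in the tumours, 1.54-fold (adjusted p = 5.69e-05). Its group means of 5.57, 5.93 and 6.20 were as dim, and the same limit holds for its folds. Phc1 and Phc2, polyhomeotic subunits that polymerise through a SAM domain, differed in the tumours, where Phc1 rose 1.26-fold (0.33 ± 0.07, limma adjusted p = 0.00142) and Phc2 fell 1.15-fold (-0.20 ± 0.07, adjusted p = 0.0234). The call of Phc2 ended without wildtype replicate 1 or tumour replicate 2 or 3, with limma adjusted p values of 0.0936, 0.0654 and 0.0609.

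Among 8 genes of variant PRC1, 1 rose in Sufu KO, and 2 rose and 3 fell in the tumours. These counts against wildtype lie near the shares of all tested genes (13%, 22.1% and 24.7%, in order) and are no result about this list. Between tumour and Sufu KO 1 was higher and 3 were lower, beside 12.2% and 17.5% of all tested genes. Groups there did not overlap for 1 higher and 6 lower genes (16.1% and 23.6% of all tested genes). Rybp, the subunit that takes the place of a CBX protein, read 9.22, 8.99 and 9.16 on wildtype arrays, 9.06, 9.36 and 9.27 on Sufu KO arrays and 8.61, 8.68 and 8.84 on tumour arrays (log2 levels). It fell 1.33-fold in the tumours against wildtype (limma adjusted p = 0.00300) and 1.44-fold against Sufu KO (adjusted p = 0.00122). Fbrs fell 1.28-fold in the tumours (limma adjusted p = 0.00156). Kdm2b, which brings variant PRC1 to unmethylated CpG islands, rose 1.23-fold in Sufu KO (limma adjusted p = 0.00393) and, in the tumours, 1.13-fold (adjusted p = 0.0321). Its tumour call ended without wildtype replicate 2 or 3 or tumour replicate 1 or 2, where limma's adjusted p ran from 0.0644 to 0.106, and with high Xist as a covariate (0.17, adjusted p = 0.0912).

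The deubiquitinase complex that removes the PRC1 mark was read through 4 genes, of which 2 rose in both mutants. Of all tested genes, 13% rose in Sufu KO and 22.1% in the tumours. Asxl3, a cofactor of the enzyme Bap1, read 7.90, 7.54 and 7.68 on wildtype arrays, 8.59, 8.62 and 8.62 on Sufu KO arrays and 8.66, 8.68 and 8.61 on tumour arrays (log2 levels). Both mutant groups stood above wildtype and overlapped each other. Asxl3 rose 1.87-fold in Sufu KO (limma adjusted p = 1.86e-05) and, in the tumours, 1.92-fold (adjusted p = 1.73e-06), with a difference of 0.04 ± 0.08 between the mutants (adjusted p = 0.798). Its paralog Asxl1 rose 1.34-fold (limma adjusted p = 0.00110) and 1.47-fold (adjusted p = 3.04e-05). Bap1 itself had differences of 0.12 ± 0.06 (limma adjusted p = 0.203) and 0.0076 ± 0.06 (adjusted p = 0.944).

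The list of enzymes that erase the PRC2 mark and their relatives holds a sex-linked pair, whose levels split with Xist. Xist, a marker of female cells that silences one of their X chromosomes, was high on each wildtype array, on 1 Sufu KO array (replicate 3) and on 1 tumour array (replicate 2). Kdm6a, an X-linked H3K27 demethylase, read 9.26, 9.13 and 9.19 on wildtype arrays, 8.60, 8.81 and 9.38 on Sufu KO arrays and 8.78, 9.14 and 8.75 on tumour arrays (log2 levels). All 5 arrays with high Xist lay above the other 4. Uty, its Y-linked relative, lay between 4.36 and 4.45 on the arrays with high Xist and between 8.28 and 8.70 on the others. With high Xist as a covariate the log2 difference of Kdm6a was 0.09 in Sufu KO (limma adjusted p = 0.562) and 0.04 in the tumours (adjusted p = 0.748), against -0.26 and -0.31 without it (adjusted p = 0.292 and 0.157). Kdm6b, an autosomal H3K27 demethylase, rose 1.19-fold in Sufu KO (limma adjusted p = 0.0192). That call ended without wildtype replicate 2 or 3 or Sufu KO replicate 2 (limma adjusted p from 0.0627 to 0.0758) and with the Xist covariate (0.20, adjusted p = 0.100). With that covariate the calls of the 9 Polycomb genes held in all 3 comparisons, and Suz12 in Sufu KO was added. No wildtype array had low Xist, so the covariate's effect was estimated in the mutant groups only, with 1 high array in each. Sex thus stays partly confounded with genotype.

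Classic targets of Polycomb silencing were mostly dim. Of 41 such genes, the Hox clusters with Cdkn2a and Cdkn2b, 39 had a probe set, and 34 of these had a mean below the median of all array values (6.76, log2). Their means ran from 4.37 to 6.96, the highest being Hoxb3. Among the 27 that passed the filter on low values, limma called 0 in any comparison, with 0 at an unadjusted p under 0.05 in each and 0 with an intensity-trended, robust prior. Their log2 differences ran from -0.19 to 0.11 in Sufu KO and from -0.17 to 0.17 in the tumours against wildtype. The smallest p belonged to Hoxb2, at 0.17 ± 0.08 in the tumours (limma adjusted p = 0.0982), then Hoxd11, at -0.19 ± 0.09 in Sufu KO (adjusted p = 0.154), and Hoxc9, at -0.14 ± 0.07 in Sufu KO (adjusted p = 0.164). The files carry no detection calls, so a gene at this brightness cannot be told from background, and its changes may be understated. Up to 2 of these genes passed in tumour against wildtype under an alternative, namely 2 lower with the Xist covariate, 1 lower without wildtype replicate 3 and 1 higher without tumour replicate 2, where 1 was also higher than in Sufu KO.

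**Figure D4:**
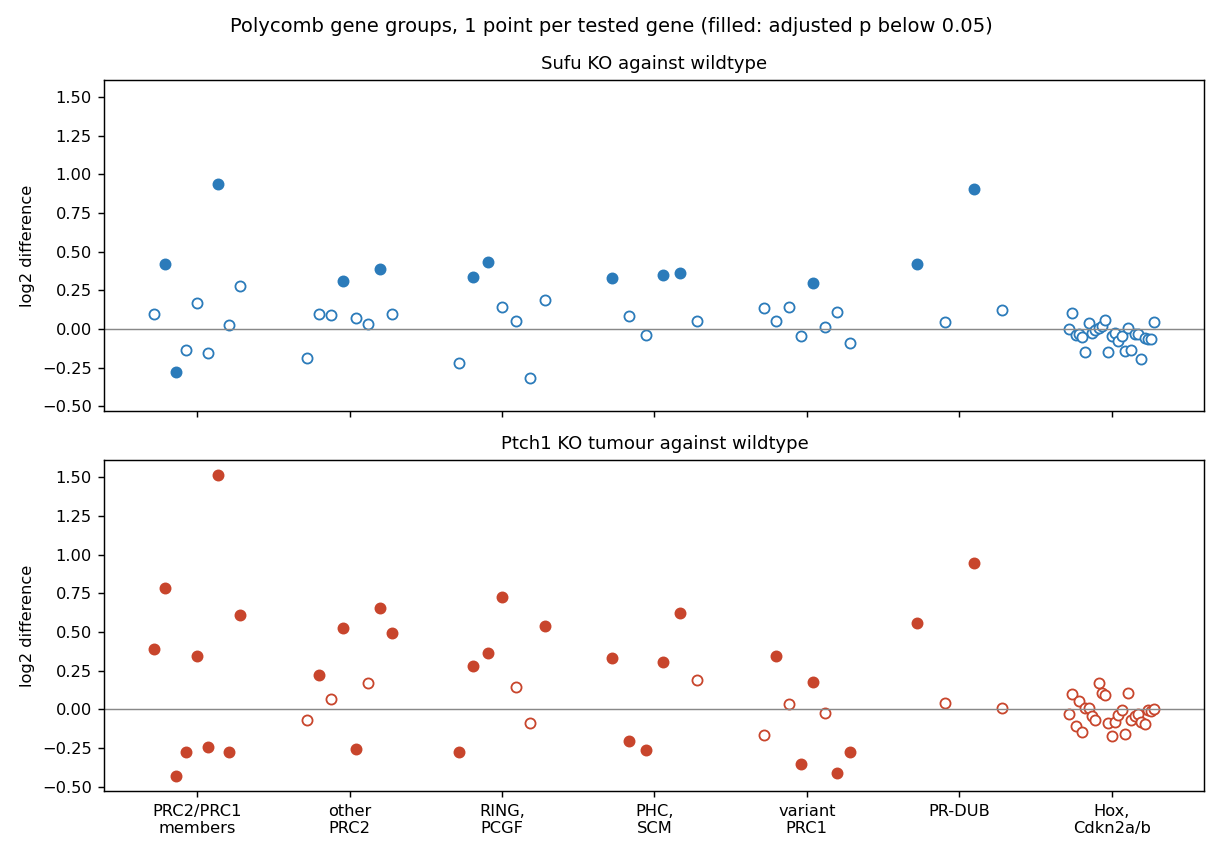
Log2 differences from wildtype (vertical axis) in Sufu KO and in the tumours for each tested gene of 7 groups (horizontal axis), filled where limma's adjusted p was below 0.05. The Hox, Cdkn2a and Cdkn2b points stay between -0.19 and 0.17 and are unfilled, while each other group has filled points in the tumours.

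Markers of dividing cells and of cell types moved with these genes, and their part in the results was not tested. All 11 tested genes of dividing cells rose in every comparison, among them the proliferation marker Mki67, at 6.19-fold in Sufu KO and 11.8-fold in the tumours. The mean log2 level of these genes ran from 7.04 to 7.32 over the wildtype arrays, 8.82 to 8.98 in Sufu KO and 9.57 to 9.99 in the tumours. Of 8 granule progenitor genes 6 rose in Sufu KO and 7 in the tumours, with mean levels of 8.79 to 9.01, 9.94 to 10.09 and 10.50 to 10.78. Mature granule neuron genes fell in 7 and 8 of 8 cases, from 11.22 to 11.42 in wildtype to 9.12 to 9.79 in the tumours, Purkinje cell genes in 6 of 6 and glial genes in 7 of 7 cases in both. Microglial and vascular genes (1 higher and 3 lower of 8 in Sufu KO, 2 higher and 4 lower in the tumours) had mean levels of 7.54 to 7.65, 7.46 to 7.59 and 7.58 to 7.72. Of all tested genes 13% rose and 12.4% fell in Sufu KO, and 22.1% rose and 24.7% fell in the tumours against wildtype. Between tumour and Sufu KO 12.2% were higher. The microglial and vascular counts of higher genes lie near those shares. In total RNA, fewer cells of a type and less RNA per cell cannot be told apart. Sufu itself read 8.96 ± 0.12 in wildtype and 8.07 ± 0.07 in Sufu KO (log2, SD, n = 3), and Ptch1 was higher in the tumours than in wildtype, so that its level does not check the Ptch1KO label.

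Tumour replicate 3 stood nearest to wildtype, with a mean correlation of 0.943 with the wildtype arrays across genes against 0.915 and 0.918 for the other two tumours. For 6 of the 9 Polycomb genes (Ezh2, Suz12, Jarid2, Bmi1, Cbx2 and Cbx8) it was the tumour closest to the wildtype mean. The share of all tested genes of which this holds was not counted, so the 6 are no result about these genes. The dividing cell markers of tumour replicate 3 were the lowest of the tumours, at 9.57. Without it the log2 difference of Ezh2 in the tumours was 1.61 (limma adjusted p = 5.06e-08) and that of Cbx2 0.91 (adjusted p = 1.19e-06). Of the 9 calls in tumour against wildtype only that of Eed ended without it (0.35, limma adjusted p = 0.0647).

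For each of the 9 genes the tested genes with the most similar profile were found by Pearson's r of log2 levels over the 9 arrays, a description that mostly reflects the 3 group means and shares all arrays. Nearest to Ezh2 were Kif11 and Kif2c, kinesins of the mitotic spindle, and Poc1b, a centriole protein, each at r = 0.999. Cbx2 was nearest to Sp1, a general transcription factor (r = 0.994), Lins1 (0.993) and Nup43, a nuclear pore subunit (0.992). Ezh1 ran closest to Kit, a receptor tyrosine kinase (r = 0.991), Armh4 (0.982) and Hspa8, a constitutive chaperone (0.980), and Cbx7 to Nacc2 (r = 0.987), Coro6 (0.986) and Etl4 (0.985). Suz12 was most like Etf1, a translation termination factor (r = 0.986), Bmi1 like Riox1, a histone demethylase and ribosomal oxygenase (0.990), Cbx8 like Pex10, a peroxisomal protein (0.991), Jarid2 like Reep6 (0.974) and Eed like Zadh2 (0.970).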

How the data were processed

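The authors deposited log2 expression values for 35556 probe sets on 9 arrays. How these values were background-corrected, normalized and summarised is not given in the sources used here. Array medians of the deposited values lay between 6.72 and 6.79, and no pair of arrays was identical. Probe sets were named with the array's annotation table, with symbols checked by gene identifier against RefSeq (GRCm38.p6), where 21698 of 21789 single-gene probe sets matched. Probe sets of several genes (1621) or not listed (12146) were left out. A gene was tested if it exceeded the 25th percentile of the array on 3 or more arrays, which left 16323 genes, and all 9 Polycomb genes passed.

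Groups were compared in limma 3.58.1 (R 4.3.3), with 1 mean per group over all 9 arrays, empirical Bayes and Benjamini-Hochberg adjustment over all genes tested (threshold 0.05). SE is moderated, and folds are log2 differences turned back to the linear scale. The fit was tested on simulated data. The 3 paralog pairs were tested by exact permutation of an F statistic, which has no direction, and limma's p-values are 2-sided. Each of the 9 genes is named. Of each other Polycomb list the up to 3 genes with the smallest p in any comparison are named. The 3 genes most like Ezh2, Ezh1, Cbx2 and Cbx7 are named, and for each of the others only the 1 most like it. The genes and lists were chosen with earlier results of these data known. Alternatives covered the replicate block, the filter, normalization, probe set choice, variance model, fits of 2 groups, an Xist covariate and leaving out each array.

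Deviations of same-numbered arrays from their group means correlated between -0.313 and 0.352 across genes. Arrays with different numbers were not compared in this way, so these values do not settle whether replicate numbers pair the arrays.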

Additional observations from a re-analysis of the deposited data

How the results depend on the processing

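Each result was recomputed under 17 alternatives, 9 of which left out 1 array. Of 459 recomputed log2 differences of the 9 Polycomb genes, 435 kept direction and side of the threshold, 16 lost the call, 5 gained one and 3 turned direction. The counts of genes higher and lower in tumour against wildtype stayed within 1.5 times the reported ones, and so did both counts in Sufu KO except that 2 genes were lower after quantile normalization. Genes higher in tumour against Sufu KO numbered 1 to 5 when 1 array was left out. The replicate block moved no count of the 9 genes by over 1.5 times and ended the call of Suz12 between tumour and Sufu KO (limma adjusted p = 0.0539). Ezh2 minus Ezh1 and Cbx2 minus Cbx7 kept their calls under each alternative they were run under.

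Log2 differences that turned direction, none of them called in the reported fit, were these. With the Xist covariate Jarid2 read -0.014, Fbrs 0.028, Uty -0.12 and Kdm6a 0.087 in Sufu KO, and Bap1 -0.034 and Kdm6a 0.045 in the tumours against wildtype. Rybp in Sufu KO read -0.0044 as the mean of its probe sets. With 1 array left out, Jarid2 ran from -0.016 to 0.063, Eed from -0.0020 to 0.27 and Fbrs from -0.11 to 0.0069 in Sufu KO, and Bap1 from -0.0069 to 0.023 in the tumours against wildtype. Between tumour and Sufu KO, Pcgf3 ran from -0.13 to 0.0063, Phc1 from -0.056 to 0.043, Uty from -1.09 to 1.63 and Kdm6a from -0.21 to 0.18. The cause was not tested.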
